A study of Mus musculus with 2 samples.

Results

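The genes that make and desaturate fatty acids were followed in mouse alveolar type 2 (AT2) cells, the lung cells that make surfactant. The set held 10 of the 28692 genes listed in the files, chosen by symbol: Srebf1, Acly, Me1, Acaca, Fasn, Elovl1, Elovl6, Scd1, Scd2 and Fabp5, and all 10 were found in both libraries. They were measured by droplet single-cell RNA sequencing of lung cells sorted as CD45- SftpC+, in 2 libraries, 1 per group, with a sort purity above 95% stated by the submitters. Each library came from wild type C57BL/6 lung, and neither age nor sex was given in the sources used here. The tumor-bearing group had received 1000000 luciferase-labeled LLC cells (Lewis lung carcinoma, a mouse line that grows after transplantation) subcutaneously on the dorsum, and lungs were taken at day 14. The control group was non-treated. The model places the tumor under the skin and is described as one of spontaneous lung metastasis, so the lungs were studied away from the injected site.

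Surfactant consists mostly of phospholipid, and its main component carries saturated palmitate chains, so AT2 cells run an active fatty acid synthesis pathway. In that pathway citrate is turned into cytosolic acetyl-CoA, carboxylated to malonyl-CoA and assembled into palmitate, which elongases can lengthen and stearoyl-CoA desaturases can convert into monounsaturated fatty acids. The transcription factor SREBP-1c, a product of Srebf1, is known to raise the expression of most of these enzymes, the desaturases among them.

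AT2 cells were taken as barcodes with at least 2000 UMIs (unique molecular identifiers, so that a transcript captured once counts once) of which Sftpc, the surfactant protein C gene, made up at least 15%. The rule found 6729 tumor-bearing cells with 62927959 UMIs and 10008 control cells with 72504204 UMIs. Of 8193 tumor-bearing barcodes with at least 2000 UMIs, 82.1% met the rule. The control library had 11007 such barcodes, and 90.9% of them met it. Both shares lay under the sort purity that the submitters stated. All 11 AT2 markers reached 20 CPM (UMIs of a gene per 1000000 UMIs of the class) in both libraries, and together they held 358199 CPM in tumor-bearing and 356083 CPM in control AT2 cells. Sftpc shares within 1 percentage point of the limit were seen in 90 tumor-bearing and 113 control barcodes. A tumor-bearing AT2 cell had 8976 UMIs at the median and a control one 6939. The libraries shared 94 AT2 barcodes, against 91.3 that barcodes drawn at random would share. Markers of other cells also differed in summed level within the AT2 cells, with 276 CPM in tumor-bearing and 129 CPM in control cells for the 11 endothelial markers, 147 and 86.1 CPM for the 11 fibroblast and smooth muscle markers, 30.1 and 0.772 CPM for the 5 neutrophil markers, and 51.7 and 234 CPM for the 5 red cell markers. Their part in the results below was not tested.

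Each group had 1 library, so no difference had a replicate check or a test, and a difference between libraries cannot be told apart from one between mice. Ratios are tumor-bearing over control. All intervals are exact 95% intervals that cover counting error only. A gene was called where it differed at least 1.5-fold and its Poisson intervals in the 2 libraries did not overlap.

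Among the members, the clearest difference in AT2 cells was a lower level of both desaturase genes in the tumor-bearing library. Scd2 stood at 0.532 times and Scd1 at 0.663 times the control level. Srebf1 stood at 0.678 times, and the synthesis genes Acaca, Fasn and Acly were lower by smaller amounts, at 0.804 to 0.855 times. Elovl1 went the other way, at 1.31 times the control level, while Fabp5 and Me1 stood at 1.03 and 1.04 times. Scd2 and Scd1 met the 1.5-fold rule, so 2 of the 10 members were called lower and 0 higher. Both were among the 7 members that reached 50 CPM. Of all genes, 1785 reached 50 CPM in one library or the other, and 0.84% of them were called lower and 1.01% higher. The members were chosen with earlier results of these data known, so the count beside these shares is a description only.

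**Figure D1:**
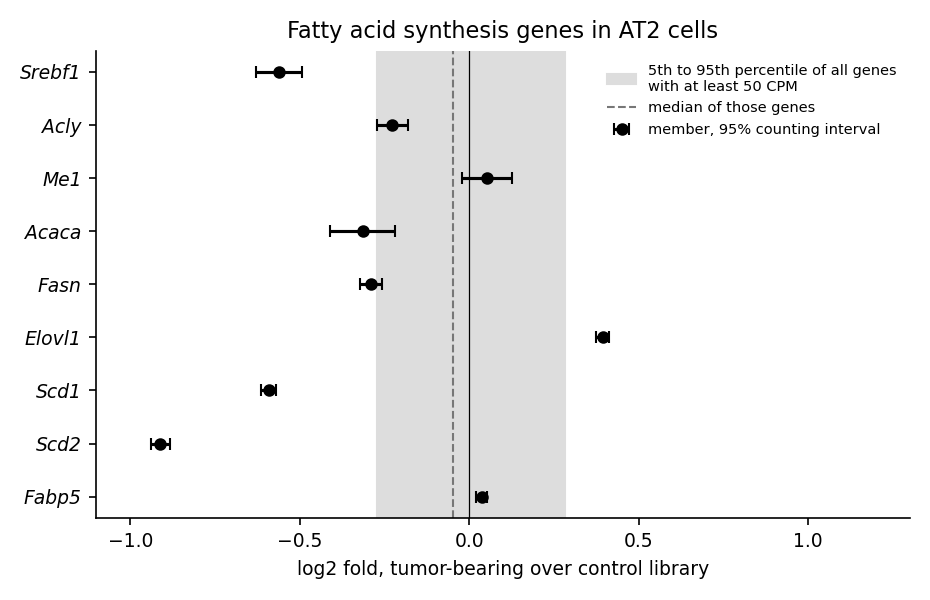
Log2 fold of each member in AT2 cells, tumor-bearing over control library (points, with 95% counting intervals); the band marks the 5th to 95th percentile and the dashed line the median of the 1785 genes that reached 50 CPM. Scd2, Scd1 and Srebf1 lie well left of the band, Acaca and Fasn just left of its edge, and Elovl1 right of it; Elovl6 is left out because it had 6 and 3 UMIs.

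Over all 10 members the median log2 ratio was -0.26, with 6 members below and 4 above 0. Over the 1785 genes the median was -0.05, 63.6% were below 0, and the 5th to 95th percentile ran from -0.27 to 0.28. Scd2, Scd1, Srebf1, Acaca and Fasn lay below this range and Elovl1 above it. No member reached 2-fold, against 0.168% of these genes lower and 0.392% higher. Of the 10 members, 7 reached 50 CPM in at least 1 library; Me1 and Acaca lay under this level and Elovl6 was hardly detected.

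Srebf1 (chr11:60199089-60222581, minus strand, mm10) encodes SREBP-1, the transcription factor of the pathway. It had 43.5 CPM (interval 41.9 to 45.2) in tumor-bearing and 64.1 CPM (62.3 to 66.0) in control AT2 cells. The intervals were well apart, and the ratio of 0.678 (0.647 to 0.711) came just short of the 1.5-fold limit. The summed count of Srebf1 does not separate its isoforms.

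Acly (chr11:100476353-100528000, minus strand) encodes ATP citrate lyase, which makes cytosolic acetyl-CoA from citrate. It had 106 CPM in tumor-bearing and 124 CPM in control AT2 cells, a ratio of 0.855 (0.828 to 0.882). Me1 (chr9:86581371-86695953, minus strand) encodes malic enzyme, a cytosolic source of the NADPH that synthesis consumes. It had 45.1 CPM in tumor-bearing and 43.4 CPM in control AT2 cells, and the interval of its ratio, 0.986 to 1.09, included 1. Acly was thus lower in the tumor-bearing library by more than counting error, Me1 was not, and neither was called.

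Acaca (chr11:84129672-84401651, plus strand) encodes acetyl-CoA carboxylase, which makes malonyl-CoA and commits carbon to synthesis. It had 23.9 CPM in tumor-bearing and 29.8 CPM in control AT2 cells, a ratio of 0.804 (0.753 to 0.860). Fasn (chr11:120805846-120824547, minus strand) encodes fatty acid synthase, which assembles palmitate. It had 203 CPM in tumor-bearing and 248 CPM in control AT2 cells, a ratio of 0.818 (0.80 to 0.837). Both genes were lower in the tumor-bearing library by more than counting error, and neither was called.

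Elovl1 (chr4:118428093-118432953, plus strand) encodes an elongase of saturated and monounsaturated very long chain fatty acids. It had 800 CPM (793 to 807) in tumor-bearing and 609 CPM (603 to 614) in control AT2 cells, a ratio of 1.31 (1.3 to 1.33). Elovl6 (chr3:129532355-129638495, plus strand) encodes the elongase that lengthens palmitate to stearate. Only 6 UMIs were counted over all tumor-bearing and 3 over all control AT2 cells, a ratio of 2.30 with an interval from 0.492 to 14.2. A difference in Elovl6 was not detectable at this depth.

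Upstream sequence is shown for Srebf1 and Fasn, which were lower in the tumor-bearing library, and for Elovl1, which was higher, because SREBP-1 acts on promoters together with the factor NF-Y, which binds the CCAAT box. The windows printed were picked among those that hold this box. The windows of Acly and Acaca, which were lower too, and of another start each of Srebf1 and Elovl1 hold none. A window of Me1, which was not lower, holds the box. The Acaca window lies inside the annotated gene. The sequences are the 250 bases before a RefSeq transcript start (GRCm38.p6, the assembly of mm10), 5′ to 3′ on the strand of the gene, with CCAAT boxes of either strand in capitals. Those of Fasn (chr11:120824548-120824797, minus strand) and Elovl1 (chr4:118427843-118428092, plus strand) lie directly before the annotated genes, and that of Srebf1 (chr11:60210472-60210721, minus strand) belongs to a start inside the gene.
Srebf1: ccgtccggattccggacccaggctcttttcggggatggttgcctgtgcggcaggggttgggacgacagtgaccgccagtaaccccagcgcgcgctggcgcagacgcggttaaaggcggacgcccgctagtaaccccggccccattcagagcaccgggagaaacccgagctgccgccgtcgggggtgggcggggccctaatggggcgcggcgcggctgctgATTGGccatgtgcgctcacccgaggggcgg
Fasn: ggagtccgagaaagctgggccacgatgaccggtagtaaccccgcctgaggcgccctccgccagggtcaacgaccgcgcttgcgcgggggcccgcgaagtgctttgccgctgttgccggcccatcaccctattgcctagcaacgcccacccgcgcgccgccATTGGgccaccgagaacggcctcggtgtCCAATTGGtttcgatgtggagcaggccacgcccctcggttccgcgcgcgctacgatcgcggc
Elovl1: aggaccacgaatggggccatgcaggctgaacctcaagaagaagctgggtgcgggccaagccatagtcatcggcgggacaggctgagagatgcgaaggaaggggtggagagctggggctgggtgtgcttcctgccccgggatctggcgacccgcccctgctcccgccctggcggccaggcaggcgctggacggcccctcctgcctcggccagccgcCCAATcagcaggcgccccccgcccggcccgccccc

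The Fasn sequence held 3 CCAAT boxes, ending 85, 57 and 54 bases before the start, of which the nearer pair overlap on opposite strands. The Srebf1 sequence held 1, ending 25 bases before the start, and the Elovl1 sequence held 1, ending 30 bases before it. RefSeq promoters were found for 7 of the 10 members, with 11 starts, and those of Scd1, Scd2 and Fabp5 are not shown. CCAAT on either strand was in 5 of these 11 windows, against 33.8% of all 32851 windows of 250 bases. The Sp1 box GGGCGG on either strand was in 6 of the 11, against 32.7%. The form TCACNCCAC of the sterol regulatory element, on either strand, was in 0 of the 11, against 1.05%. These are matches of letters, and the data held no measure of binding.

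Scd1 (chr19:44394455-44407879, minus strand) and Scd2 (chr19:44293674-44306864, plus strand) encode stearoyl-CoA desaturases, which put a double bond into stearate and palmitate and so make oleate and palmitoleate. Mouse has several such genes side by side on chromosome 19, with Scd3 and Scd4 annotated beside Scd1 and Scd2. Because the paralogs are alike, the ends of their coding sequences are shown (90 bases before the stop codon, 5′ to 3′ on the strand of the gene, each within 1 exon, mm10), with the bases that differ in capitals. The Scd1 sequence is chr19:44397922-44398011 and the Scd2 sequence chr19:44303108-44303197.
Scd1: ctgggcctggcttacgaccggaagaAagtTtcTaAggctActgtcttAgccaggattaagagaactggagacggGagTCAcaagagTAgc
Scd2: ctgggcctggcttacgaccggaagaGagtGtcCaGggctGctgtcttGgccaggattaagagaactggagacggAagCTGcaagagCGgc

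The 2 stretches differ at 12 of 90 bases, and the coding sequences were 90.3% identical over 1065 aligned bases. Stretches of 60 bases that occur identically in another Scd transcript made up 3.77% of those in Scd1 and 2.72% of those in Scd2. None lay in the last 1000 bases of either transcript, next to the poly(A) tail. Reads of 3′ ends can therefore be told apart, although how the authors' counting treated reads that match both genes is not given in the sources used here.

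Scd2 had 236 CPM (232 to 240) in tumor-bearing and 444 CPM (440 to 449) in control AT2 cells, from 14868 and 32226 UMIs. Its ratio was 0.532 (0.521 to 0.542). Scd1 had 389 CPM (384 to 394) in tumor-bearing and 586 CPM (581 to 592) in control AT2 cells, from 24484 and 42519 UMIs. Its ratio was 0.663 (0.653 to 0.674), near the 1.5-fold limit, and it was not called under 7 of 24 alternative settings (the pseudocount, which does not enter the call, left aside), in which its fold reached 0.706 at most. Scd2 was called under all 24.

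Fabp5 (chr3:10012548-10016607, plus strand) encodes a fatty acid binding protein that carries fatty acids within the cell. It had 883 CPM in tumor-bearing and 860 CPM in control AT2 cells, a ratio of 1.03 (1.01 to 1.04). This small difference turned the other way in some subsets of cells, given below.

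The differences in the desaturases, in Srebf1 and in Elovl1 had the same direction in each of the 4 large clusters of AT2 cells, those with at least 200 AT2 cells in each library, built without the members and the other pathway genes. The clusters were led by Nrn1 and Lyz1 (2403 tumor-bearing and 4274 control cells), by Lyz1 and Cxcl1 (2271 and 2787), by Areg and Cxcl1 (991 and 1626), and by mitochondrial genes at low UMI totals (236 and 526). The log2 ratio of Scd2 was -0.92, -0.96, -0.84 and -1.0 in these clusters in that order. That of Scd1 was -0.55, -0.66, -0.50 and -0.81, that of Srebf1 was -0.57, -0.54, -0.48 and -0.33, and that of Elovl1 was 0.42, 0.49, 0.35 and 0.26.

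The Areg and Cxcl1 cluster had the lowest Scd1, Scd2, Srebf1 and Elovl1 levels of the 4 in both libraries. Scd1 there had 301 CPM in tumor-bearing and 427 CPM in control cells, against 423 and 618 CPM in the Nrn1 and Lyz1 cluster. Fabp5 there had 515 CPM in tumor-bearing and 418 CPM in control cells, a ratio of 1.23 (1.19 to 1.28), while in the Nrn1 and Lyz1 cluster it had 993 CPM in both libraries. In the cluster led by mitochondrial genes the Srebf1 ratio was 0.792, with an interval of 0.584 to 1.06 that includes 1.

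**Figure D2:**
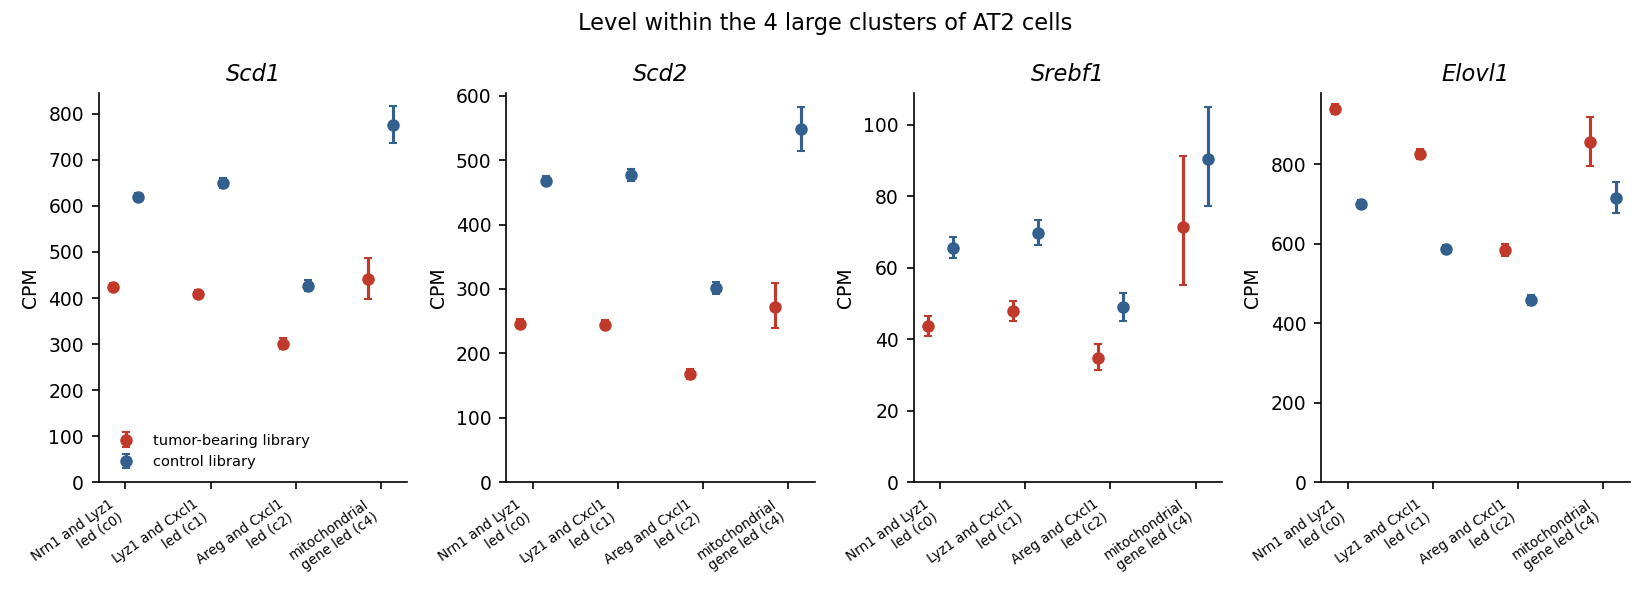
Level in CPM within the 4 large clusters of AT2 cells, tumor-bearing (red) and control (blue) library, with 95% counting intervals. Scd1, Scd2 and Srebf1 are lower and Elovl1 is higher in the tumor-bearing library in each cluster, and the intervals overlap only for Srebf1 in the cluster led by mitochondrial genes.

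Tumor-bearing AT2 cells had more UMIs per cell, so the levels were also taken within ranges of UMI total. In cells of 2000 to under 5000 UMIs (468 tumor-bearing and 1577 control) the ratio of Scd2 was 0.464 and that of Scd1 was 0.521. In cells of 5000 to under 10000 UMIs (4019 and 7228) they were 0.549 and 0.658, and in cells of 10000 or more (2242 and 1203) they were 0.511 and 0.678. Elovl1 stood at 1.20, 1.3 and 1.37 times the control level in these ranges. The ratio of Srebf1 was 0.839 in the lowest range, with an interval of 0.672 to 1.04, and 0.677 and 0.676 in the other ranges. Fabp5 lay on both sides of 1, with ratios of 0.878 and 0.968 in the lower ranges and a log2 ratio of 0.11 in the highest.

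The share of cells in which a gene was seen gave the same picture. With every cell thinned to 2000 UMIs, which left out no cell, Scd1 was seen in 48.0% (46.8 to 49.2) of tumor-bearing and 61.7% (60.8 to 62.7) of control AT2 cells. As sequenced, the shares were 87.1% in tumor-bearing and 91% in control cells, at unequal depth. Scd2 was seen in 36.0% of tumor-bearing and 56.0% of control thinned cells, and Srebf1 in 8.02% and 12.5%. Endothelial-like cells, a comparison class called the background here, showed Scd1 in 6.42% of tumor-bearing and 11.1% of control cells at the same 2000 UMIs. The share of Scd1 in AT2 cells was several times this background in both libraries. The background was 9.52% and 22.2% for Scd2 and 2.48% and 5.56% for Srebf1. For Srebf1 the control background, from 54 cells, had an interval of 1.16 to 15.4% that included the AT2 share. Scd1 in endothelial-like cells stood at 1.27 (tumor-bearing) and 1.01 (control) times the free RNA estimate given below. Scd2 stood at 3.49 and 3.89 times, Elovl1 at 4.13 and 5.27 times, and Acly at 5.06 and 5.82 times that estimate. For Scd2, Elovl1 and Acly the background is thus another class of cells and not a floor of detection.

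Elovl1 was seen in 71.2% of tumor-bearing and 64.1% of control thinned AT2 cells, Fabp5 in 72.0% and 69.3%, and Fasn in 32.7% and 38.4%. Acly was seen in 18.7% of tumor-bearing and 21.1% of control cells, Me1 in 8.80% and 8.32%, and Acaca in 4.83% and 5.60%. The endothelial-like background was high for Elovl1, at 35.2% of tumor-bearing and 38.9% of control cells. It was 17.4% and 16.7% for Fabp5, 7.87% and 11.1% for Acly, 2.28% and 3.70% for Me1 and 0.414% and 1.85% for Acaca. For Fasn it was 5.18% of tumor-bearing cells and 0 of 54 control cells, which allows a share of up to 5.56%. For each of these genes the share was higher in AT2 cells than in this background in both libraries. In control cells the background interval included the AT2 share for Acly (4.19 to 22.6%), Me1 (0.452 to 12.7%) and Acaca (0.0469 to 9.89%). Thinned counts of 2 to 10 were seen in 18.4% of tumor-bearing and 29.9% of control cells for Scd1, and in 8.59% and 22.5% for Scd2. The variance over the mean of the thinned counts, which is 1 where counting error is all there is, was 1.47 in tumor-bearing and 1.76 in control cells for Scd1. It was 1.11 and 1.27 for Scd2, 1.68 and 1.48 for Elovl1, 1.73 and 2.01 for Fabp5, and 1.02 and 1.01 for Srebf1. Scd1, Scd2, Elovl1 and Fabp5 thus varied between cells beyond counting error. For Srebf1, with means of 0.0846 UMIs in tumor-bearing and 0.134 in control thinned cells, the value stayed near 1.

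**Figure D3:**
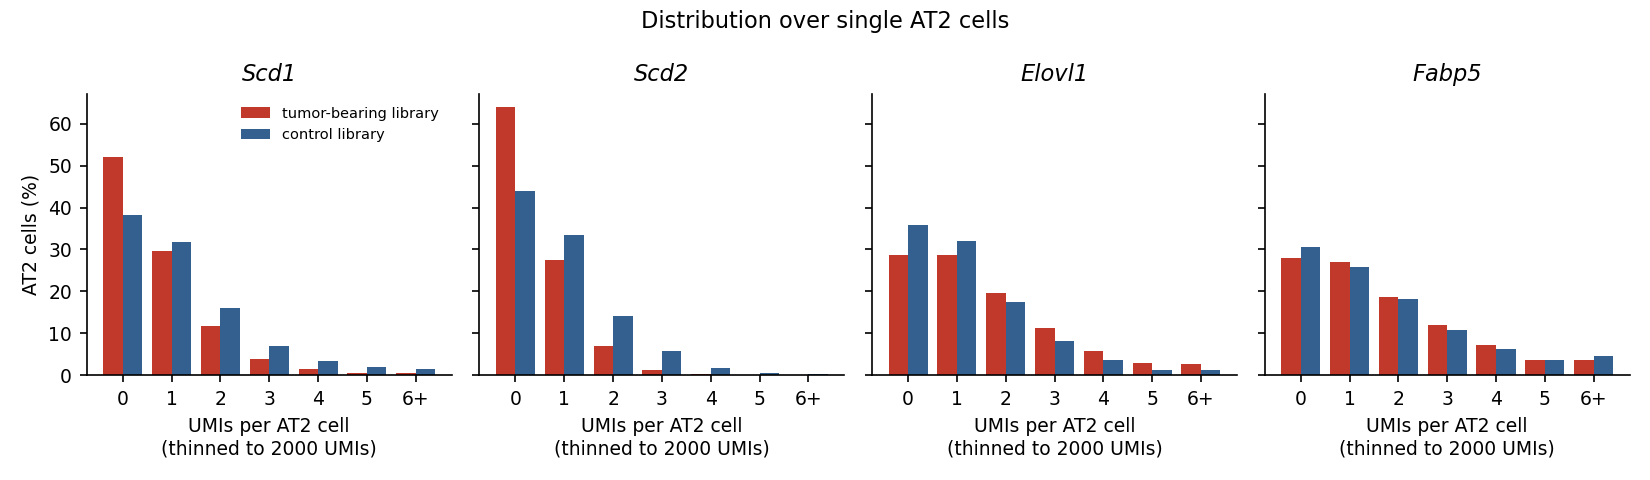
Share of AT2 cells (percent) by the number of UMIs of a gene after each cell was thinned to 2000 UMIs, tumor-bearing (red) and control (blue) library. For Scd1 and Scd2 the bar at 0 is higher in the tumor-bearing library (52.0% against 38.3% and 64.0% against 44.0%), and for Elovl1 it is lower (28.8% against 36.0%).

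Across single cells the members were hardly correlated. The highest Pearson correlations with Scd1 among members, over 6729 tumor-bearing and 10008 control cells that share a library and a thinned depth, were 0.114 and 0.183 for Fabp5, 0.104 and 0.162 for Scd2, and 0.059 and 0.106 for Fasn. Among the other genes with at least 50 CPM in both libraries, those most like Scd1 by the lower of the correlations in the 2 libraries were Lrg1 (0.147 in tumor-bearing and 0.119 in control cells), the phosphate carrier gene Slc34a2 (0.118 and 0.133), the sterol carrier gene Npc2 (0.131 and 0.102), Fdps of the sterol pathway (0.088 and 0.097) and Dbi (0.102 and 0.088). The median over the 1639 genes ranked was -0.002 in tumor-bearing and -0.004 in control cells. In counts this sparse such values are a description only. The level of Lrg1 was 332 CPM in tumor-bearing and 218 CPM in control AT2 cells, opposite in direction to Scd1.

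The other genes of the pathway were read from lists of regulators, precursor supply, synthesis, elongation, desaturation, activation, binding and phospholipid synthesis. Of 75 such genes that are not members, 74 were in the files and 38 reached 20 CPM in AT2 cells of at least 1 library. Of these 38, 18 were above and 20 below a ratio of 1, with a median log2 ratio of -0.03. None was called, while of the 4036 genes that reached 20 CPM 0.892% were called lower and 1.36% higher.

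Lowest among them were Insig1, which holds SREBPs in the endoplasmic reticulum, with 54.7 CPM in tumor-bearing and 70.0 CPM in control cells, Slc25a1, the mitochondrial citrate carrier (36.0 and 46.1 CPM), Pgd, an NADPH-producing enzyme of the pentose phosphate pathway (46.9 and 59.6 CPM), Thrsp, a regulator of lipogenesis (22.5 and 28.7 CPM), and Pcyt1a, which controls the rate of phosphatidylcholine synthesis (20.02 and 26.6 CPM). Their ratios lay between 0.753 and 0.787. Insig1 in AT2 cells stood at 0.708 (tumor-bearing) and 0.516 (control) times its level in the empty droplets described below. The part of free RNA in the Insig1 ratio was not tested. Highest were Fabp12, with 24.4 CPM in tumor-bearing and 16.7 CPM in control cells, and Agpat3, an acyltransferase of phospholipid synthesis, with 32.5 and 25.1 CPM, at 1.46 and 1.3 times the control level.

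Near these genes in the pathway, Mid1ip1, a binding partner of Thrsp that activates acetyl-CoA carboxylase, stood at 0.815 times the control level. Among genes that serve desaturation, Fads1, a desaturase of polyunsaturated fatty acids, stood at 0.847, and Cyb5a and Cyb5b, cytochrome b5 genes whose products pass electrons to desaturases, stood at 0.869 and 0.809. The elongation genes Hacd1 and Tecr stood at 1.08 and 1.07 and Hacd2 at 0.905. Acsl4 and Acsl5, which activate fatty acids to acyl-CoA, stood at 0.988 and 1.03, and Idh1, another source of NADPH, at 1.06. Dbi, which encodes the acyl-CoA binding protein, stood at 1.24. The regulators Mbtps1 and Cebpa stood at 0.885 and 0.915, Cept1 of phospholipid synthesis at 0.818, and Ndufab1 of mitochondrial synthesis at 0.938. Counting members too, the list medians on the log2 scale were -0.30 for cytosolic synthesis (4 genes) and -0.24 for desaturation (7 genes), against 0.06 for elongation (7), 0.17 for phospholipid synthesis (8, turning to -0.17 with no CPM minimum) and 0.31 for binding (3).

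Outside AT2 cells, Scd2 was the member with the most distinct pattern. AT1-like cells, resembling the thin cells across which gas is exchanged, had the highest Scd2 level of all classes in both libraries, at 739 CPM (694 to 786) in tumor-bearing and 1060 CPM (1021 to 1100) in control cells. The level in AT2 cells was 0.320 times that in AT1-like cells for tumor-bearing and 0.419 times for control cells. Scd1 had the reverse order, with AT2 cells at 6.07 times the level of AT1-like cells in the tumor-bearing library and 3.4 times in the control library. Fasn, Elovl1, Fabp5, Acly and Srebf1 were highest in AT2 cells in both libraries, while for Me1 the intervals of AT2 and AT1-like cells overlapped.

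**Figure D4:**
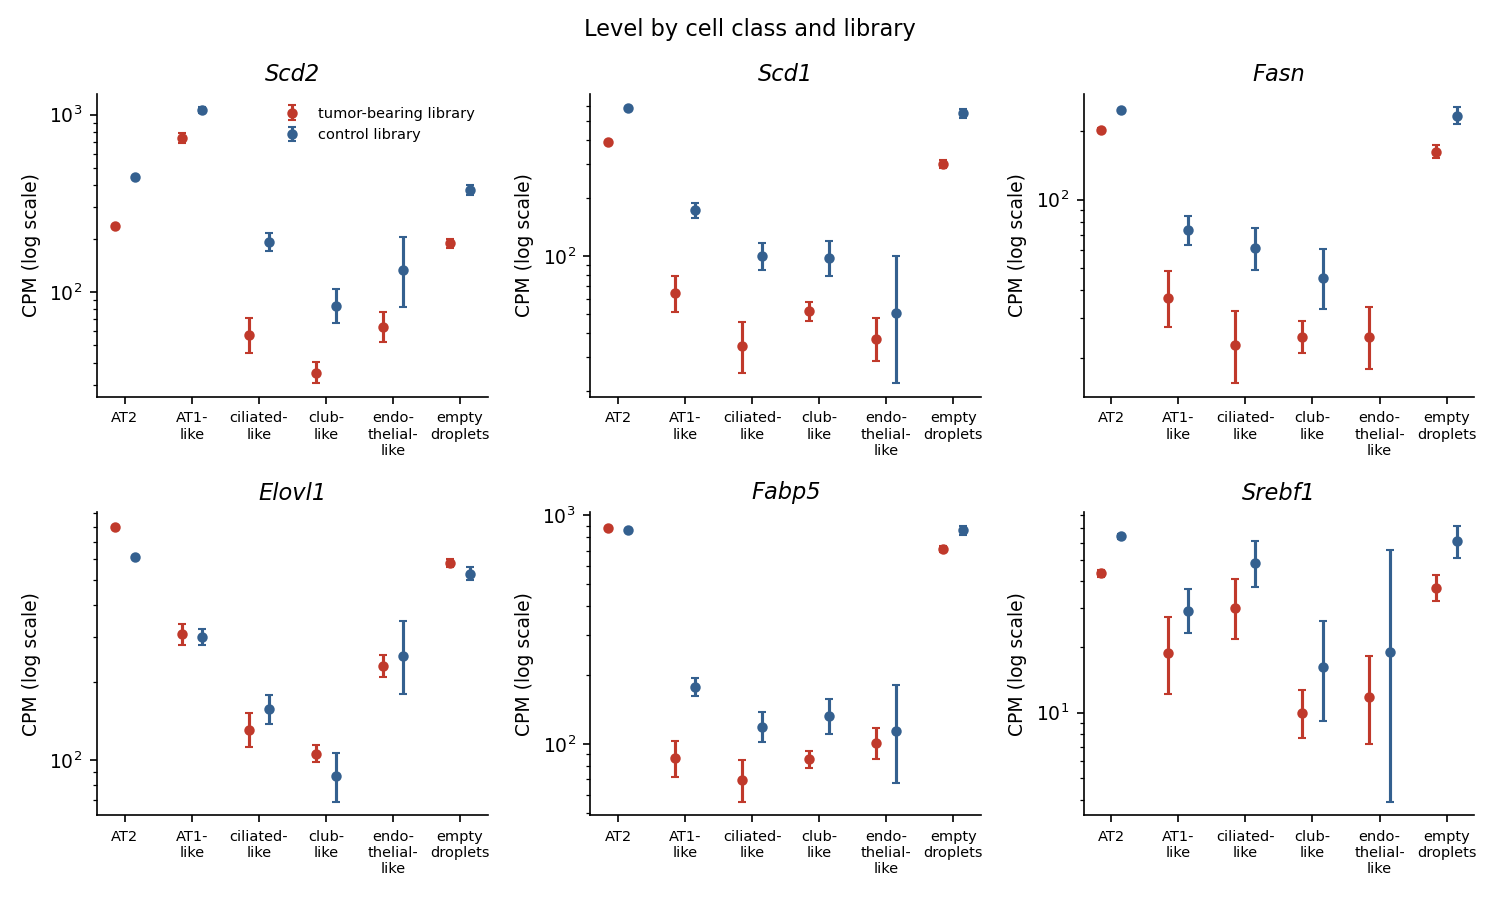
Level of 6 members in CPM (log scale) by cell class and in empty droplets, tumor-bearing (red) and control (blue) library, with 95% counting intervals. Scd2 is highest in AT1-like cells, the other 5 are highest in AT2 cells or in the empty droplets close to them, and the missing control point for Fasn in endothelial-like cells is 0 UMIs.

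These classes came from clusters named by their markers, with AT1-like (179 tumor-bearing and 359 control cells), ciliated-like (231 and 306), club-like (295 and 77) and endothelial-like (483 and 54) barcodes under 15% Sftpc. In droplet data free RNA from broken cells can enter every droplet. Barcodes with 1 to 100 UMIs, taken as empty, resembled AT2 cells in all members but Elovl6, AT2 cells lying at 1.00 to 1.38 times their level. Taking all Sftpc in a class as free RNA, the free share of its UMIs was estimated at 19.9% in tumor-bearing and 22.8% in control AT1-like cells, 8.90% and 14.5% in ciliated-like, 13.1% and 14.7% in club-like, and 9.72% and 9.11% in endothelial-like cells. The 11 AT2 markers summed to 51971 CPM in tumor-bearing and 73243 CPM in control AT1-like cells, 23845 and 47161 CPM in ciliated-like, 40196 and 55732 CPM in club-like and 25845 and 29186 CPM in endothelial-like cells. They were thus lower in the tumor-bearing library in each of these classes, and their part in the ratios below was not tested.

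In AT1-like cells Scd2 was 19.8 times the free RNA estimate in the tumor-bearing and 12.4 times in the control library. Its ratio was 0.697 (0.648 to 0.749), closer to 1 than in AT2 cells. The log2 ratio in AT2 cells minus that in AT1-like cells was -0.39 (-0.50 to -0.28, counting error only). Scd1 in AT1-like cells had 64.1 CPM in tumor-bearing and 173 CPM in control cells, Fasn 36.7 and 73.2 CPM, and Fabp5 86.4 and 178 CPM. These 3, of the 5 members that reached 50 CPM, were called lower, against 2.16% of 3052 genes. They stood at 0.612 to 1.37 times the free RNA estimate. In control cells the intervals of Scd1 (157 to 189 CPM) and Fasn (63.1 to 84.3 CPM) lay above their estimates of 126 and 53.6 CPM, while in tumor-bearing cells the intervals of both included the estimate, and Fabp5 lay below it in both libraries. Elovl1 had 307 CPM in tumor-bearing and 299 CPM in control AT1-like cells, 2.67 and 2.48 times the estimate, with a ratio of 1.03 (0.910 to 1.16). The log2 ratio of Elovl1 in AT2 cells minus that in AT1-like cells was 0.36 (0.18 to 0.53).

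In ciliated-like cells, the airway cells with motile cilia, Scd2 had 57.5 CPM (45.4 to 71.7) in the tumor-bearing and 192 CPM (170 to 215) in the control library, a ratio of 0.300 (0.230 to 0.386). This was 3.44 and 3.53 times the free RNA estimate. Scd1, Fasn and Fabp5 were called lower too and stood at 0.953 to 1.79 times the estimate. With Scd2 that makes 4 of the 5 members that reached 50 CPM, against 3.38% of 3221 genes. Srebf1 had 30.2 CPM in tumor-bearing and 48.2 CPM in control ciliated-like cells, 9.10 and 5.49 times the estimate, with a ratio of 0.626 (0.416 to 0.931).

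In club-like cells, resembling secretory airway cells, Scd2, Scd1, Fasn and Fabp5 were called lower, against 7.13% of 1094 genes, at 0.420 to 0.649 times the control level. Fasn, with 24.8 CPM in tumor-bearing and 45.3 CPM in control cells, lay under the 50 CPM limit of those genes. All 4 lay at 0.922 to 1.51 times the free RNA estimate. In endothelial-like cells Scd2 was called lower, against 2.32% of 3752 genes, with 63.7 CPM in tumor-bearing and 133 CPM in control cells from 108 and 21 UMIs, at 3.49 and 3.89 times the estimate. The call was lost in cells of at least 3000 UMIs and with the highest doublet scores removed, where the log2 ratios were -1.06 and -0.82. The median log2 ratio of the members was -0.52 in AT1-like, -0.96 in ciliated-like, -0.41 in club-like and -0.51 in endothelial-like cells, beside -0.02, 0.02, -0.18 and -0.06 over all genes that reached 50 CPM there.

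Tumor-bearing empty droplets held 5359717 UMIs in all and control ones 2321211. Scd2 had 188 CPM in tumor-bearing and 375 CPM in control empty droplets, Scd1 300 and 551 CPM, and Srebf1 37.3 and 60.7 CPM. These 3 members were called lower there, against 2.64% of 1892 genes, with ratios of 0.501, 0.545 and 0.614. The 9 club markers summed to 125148 CPM in tumor-bearing and 23504 CPM in control empty droplets, and their part in these ratios was not tested. In AT2 cells the free share estimated from the club gene Scgb1a1 was 5.53% in tumor-bearing and 17.9% in control cells, a value that any Scgb1a1 expressed by the AT2 cells themselves would raise. With that share of the empty-droplet profile subtracted, the AT2 log2 ratios were -0.94 for Scd2, -0.59 for Scd1 and 0.38 for Elovl1.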

How the data were processed

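Raw UMI counts per gene and barcode were deposited by the authors, not normalised and before any call of cells, with 737280 barcodes per library. The tumor-bearing library held 84448360 UMIs and the control library 91498124. Per the series design, reads were processed with Cell Ranger 2.1.0; per the submitters' processing notes, Seurat and R 3.5.3 were also used, for steps not given, and mm10 was the genome build. For each class the deposited counts were added up over its cells and expressed as CPM of its total. Log2 ratios used a pseudocount of 1 CPM, and folds used none. Intervals are exact (Poisson for CPM, Clopper-Pearson for shares, conditional binomial for folds). Other classes came from Leiden clusters (scanpy 1.11.5, 2000 variable genes without the pathway genes, 30 principal components, 15 neighbours, resolution 0.5) named from marker lists, so they may differ from classes of the submitters. Scrublet's automatic threshold marked 0 tumor-bearing and 1 control barcodes, so doublets were kept and removed as an alternative. The members and lists were chosen with earlier results of these data known. Named beyond the members were up to 3 genes per list with the log2 ratios farthest from 0 in either direction at 20 CPM or more, and the 5 genes most like Scd1. Positions are from GENCODE vM21. On simulated AT2 counts with known folds, all genes differing 1.8-fold or more and 0 unaltered genes were called. Those counts, for genes of at least 50 CPM, held counting error only. They cannot show how the rule behaves where mice or libraries differ. The gene Hsd17b8 of the mitochondrial list was not analysed here.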

Additional observations from a re-analysis of the deposited data

Results flagged for a closer look

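Fabp5 is listed here because its ratio lay on opposite sides of 1 in different classes: 1.03 in AT2 cells against 0.486 in AT1-like, 0.584 in ciliated-like and 0.649 in club-like cells. Fasn lay at 0.818 in AT2 cells, while endothelial-like cells had 42 UMIs of it if tumor-bearing and 0 if control. Against a floor of 3 counts over the class this is 1.3-fold higher, while the exact interval of the ratio began at 1.01. The Poisson intervals overlapped (17.8 to 33.5 CPM against 0 to 23.4 CPM), so Fasn was not called there. For Fabp5 the log2 ratio in AT2 cells minus that in the class was 1.08 (0.79 to 1.37) for AT1-like, 0.81 (0.45 to 1.17) for ciliated-like and 0.66 (0.39 to 0.94) for club-like cells, intervals that cover counting error only. With 1 library a group, none of these differences between classes was tested over replicates. Fabp5 in the 3 classes stood at 0.612 to 1.10 times the estimated free RNA level in both libraries, and Fasn in tumor-bearing endothelial-like cells at 1.56 times that level.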

How the results depend on the processing

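No paired analysis was possible because each group had 1 library, and for the same reason no library could be left out. Over 24 alternatives in AT2 cells (pseudocounts aside), folds ran from 0.464 to 0.556 for Scd2, 0.521 to 0.706 for Scd1, 0.630 to 0.839 for Srebf1, 0.790 to 0.862 for Fasn and 1.20 to 1.41 for Elovl1, each on 1 side of 1. Called members in AT2 cells were 1 in place of 2 with Sftpc at least 20%, with Sftpc at least 30%, with at least 5000 UMIs, with scaling by the median ratio of all genes, within the Areg and Cxcl1 cluster, and in cells of 10000 or more UMIs, an alternative chosen after seeing the data. They were 3, Srebf1 among them, with cells thinned to 2000 UMIs. Within the Nrn1 and Lyz1 cluster the 2 were Scd2 and Srebf1. The member median was -0.15 with Sftpc at least 30% and -0.14 within the Areg and Cxcl1 cluster, against -0.26. Fabp5 in AT2 cells turned to a log2 ratio of -0.080 with Sftpc at least 30%, -0.14 in the cluster led by mitochondrial genes, -0.19 at 2000 to under 5000 UMIs and -0.046 at 5000 to under 10000 UMIs, and Acaca to 0.055 in the cluster led by mitochondrial genes. The median of the phospholipid list turned to -0.17 with no CPM minimum, and that of the non-members to 0.02 with scaling by the median ratio. Called members were 1 in place of 3 in AT1-like cells with no limit on Sftpc, where Fabp5 turned to 0.15. They were 2 in place of 4 in club-like cells with Sftpc under 5% and with free RNA subtracted, and 0 in place of 1 in endothelial-like cells with at least 3000 UMIs and with the highest doublet scores removed. Fabp5 in ciliated-like cells turned to 2.96 with free RNA subtracted. The cause of these shifts was not tested. The median over all genes lay at -0.05, or -0.04 without surfactant genes in the scaling. Depth limits Elovl6 in AT2 cells and most members in the small classes, and intervals cover counting error only.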
